A study of Arabidopsis thaliana with 14 samples.

Results

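The genes described here were chosen by their measured signal in Arabidopsis thaliana root tips, which had to be at least 1 lower on the log2 scale than in control root tips of the same time under each of 4 treatments: estradiol for 12 h, trans-zeatin for 12 h, estradiol for 24 h and trans-zeatin for 24 h. The scale is log2 of the deposited signal plus 6, and a mean control signal of 50 or more was required at 12 or 24 h. Of 22746 probe sets other than the array's control probe sets, 76 met these limits, and 5 were left out by name (ATC, AT5G60520, AT5G54370, PDF2.5 and EXLB1), which left 71 probe sets. Symbols starting with UGT, XTH, EXP, TBL, SCPL, BGLU or NPF were also to be left out, as were a few further named genes. Of the 71, 44 pair with exactly 1 gene each, all different, and 27 have no gene named in the tables used here. Those 27 could not be checked against the names to leave out. Because the 4 comparisons with control chose the members, those differences are a description and carry no test. For the members, tests are given only for comparisons that did not themselves set a limit, namely estradiol against trans-zeatin, 24 h against 12 h in control root tips, and the change of each treatment's effect between the times. Genes outside the 71 were also tested against control.

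All samples were 5 mm primary root tips. The seedlings, AtIPT8/pga22 in a Wassilewskija background, were grown for 7 days on plates and then covered on the plate with liquid medium. The medium held no added agent (control), 5 µM 17-beta-estradiol or 5 µM trans-zeatin, a cytokinin, and acted for 12 or 24 h. Control and estradiol at 12 h have 3 arrays each, and trans-zeatin at 12 h and all groups at 24 h have 2 each, in all 14 Affymetrix ATH1 arrays. In pga22 plants estradiol is known to induce IPT8, which encodes an enzyme of cytokinin synthesis, while the labels also state a T-DNA knock out of IPT8. Every sample, controls included, carries this genotype. An action of the estradiol molecule and an action of induced IPT8 therefore cannot be told apart.

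Cytokinin is a plant hormone that is sensed at membrane-bound histidine kinases and acts through a phosphorelay on response regulators in the nucleus. In the root tip it is known to oppose auxin: it promotes the passage of meristem cells into elongation and differentiation and restrains lateral root formation. Cells in that passage remodel their walls through secreted proteins such as peroxidases, pectin-modifying enzymes and small cysteine-rich proteins. Peroxidases and small cysteine-rich proteins occur among the 71, but a link of the members to that passage was not tested. The gene tables used here give 40 of the 44 named members a locus number only, so the family names below are background knowledge of these loci.

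The 14 arrays had equal trimmed mean signals of 100, and median signals from 35.4 to 42.4. Actin control probes gave a 3'/5' signal ratio, which rises as RNA degrades, that was mostly higher in controls: it was 3.58, 4.93 and 3.23 in the control 12 h arrays against 2.37 to 3.31 in the treated 12 h arrays, and 6.24 and 6.44 in the control 24 h arrays against 3.71 to 4.85 in the treated 24 h arrays. With that ratio as a covariate, the median log2 difference of the members from control was -1.61 for estradiol 12 h, -1.91 for trans-zeatin 12 h, -1.69 for estradiol 24 h and -1.70 for trans-zeatin 24 h, against -1.59, -1.92, -1.69 and -1.67 without it. Earlier work on these data set apart an array of each of 2 groups, replicate 3 of control 12 h and replicate 1 of estradiol 12 h. Without both, the medians at 12 h were -1.50 and -1.78. In root tips measured as a whole, fewer cells of a type and less RNA per cell cannot be told apart. Of 45 marker genes of 8 cell types or tissues listed for this work, 3 have a named probe set: EXPA7, an expansin gene of root hairs, and GSO1 and AT4G28100 of the endodermis. Markers of the root cap, xylem, phloem, non-hair epidermis, meristem centre and shoot were not analysed here, so the labelled tissue was not checked further. EXPA7 had group mean signals from 26.3 to 42.5, with adjusted p of at least 0.66 in each of the 4 comparisons with control. GSO1 had log2 differences from -0.06 to 0.58 (adjusted p at least 0.24), and AT4G28100 from -0.83 ± 0.27 (SE, adjusted p = 0.078) with trans-zeatin at 12 h to -0.35. None of the 3 passed at an adjusted p of 0.05 in limma. Of 15605 tested probe sets, 4.88%, 7.5%, 3.79% and 3.46% did with estradiol 12 h, trans-zeatin 12 h, estradiol 24 h and trans-zeatin 24 h. With trans-zeatin, 1 of the 3 had an unadjusted p under 0.05 in limma at each time, but not the same gene. At 12 h it was AT4G28100, which was lower, and at 24 h it was GSO1, which was higher (0.58 ± 0.25 SE).

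The members were lower in all 9 treated arrays, with the largest median difference for trans-zeatin at 12 h. Of 10873 probe sets with a control signal of 50 or more, 1.73% were at least 1 below control with estradiol at 12 h, 2.9% with trans-zeatin at 12 h, 2.54% with estradiol at 24 h and 2.55% with trans-zeatin at 24 h. The share that met all 4 limits was 0.699%. Over the 71, the median log2 difference was -1.59 (range -3.46 to -1.004) for estradiol 12 h, -1.92 (-4.12 to -1.08) for trans-zeatin 12 h, -1.69 (-3.32 to -1.03) for estradiol 24 h and -1.67 (-4.55 to -1.02) for trans-zeatin 24 h. As a share of the control signal, the median member kept 28.7% with estradiol at 12 h, 23.7% with trans-zeatin at 12 h, 28.2% with estradiol at 24 h and 27.7% with trans-zeatin at 24 h. The largest difference of a member was with trans-zeatin at 12 h in 33 members, with trans-zeatin at 24 h in 18, with estradiol at 24 h in 12 and with estradiol at 12 h in 8. Averaged over the 4 treatments, the differences ran from -3.25 to -1.06 with a median of -1.69, and 20 members were lower by 2 or more.

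Array by array, every member lay below its control mean in each of the 9 treated arrays. The median position relative to control was -1.63, -1.60 and -1.55 in the estradiol 12 h arrays, -1.87 and -1.97 in the trans-zeatin 12 h arrays, -1.70 and -1.75 in the estradiol 24 h arrays, and -1.70 and -1.77 in the trans-zeatin 24 h arrays. The control arrays lay between -0.14 and 0.12. In 63 of the 71 members all 9 treated arrays were below all 5 control arrays, which was so in 3.29% of the 15605 probe sets; since the rule used these arrays, nothing is read from that difference. The 8 members with overlapping arrays were AT4G15390, AT5G50740, AT5G12940, AT5G01870, AT3G62040, AT4G08780, AT1G52060 and the unnamed 266974_at. In 7 of them 1 treated array reached the lowest control array of either time, and in AT1G52060 4 did. Members scattered more between replicates than other probe sets, with a median within-group SD of 0.41 on the log2 scale against 0.26 over all probe sets tested. In 8 members all 9 treated arrays were under 23, the 40th percentile of all deposited values, near the dim end of the scale, and no detection calls were used here.

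**Figure D1:**
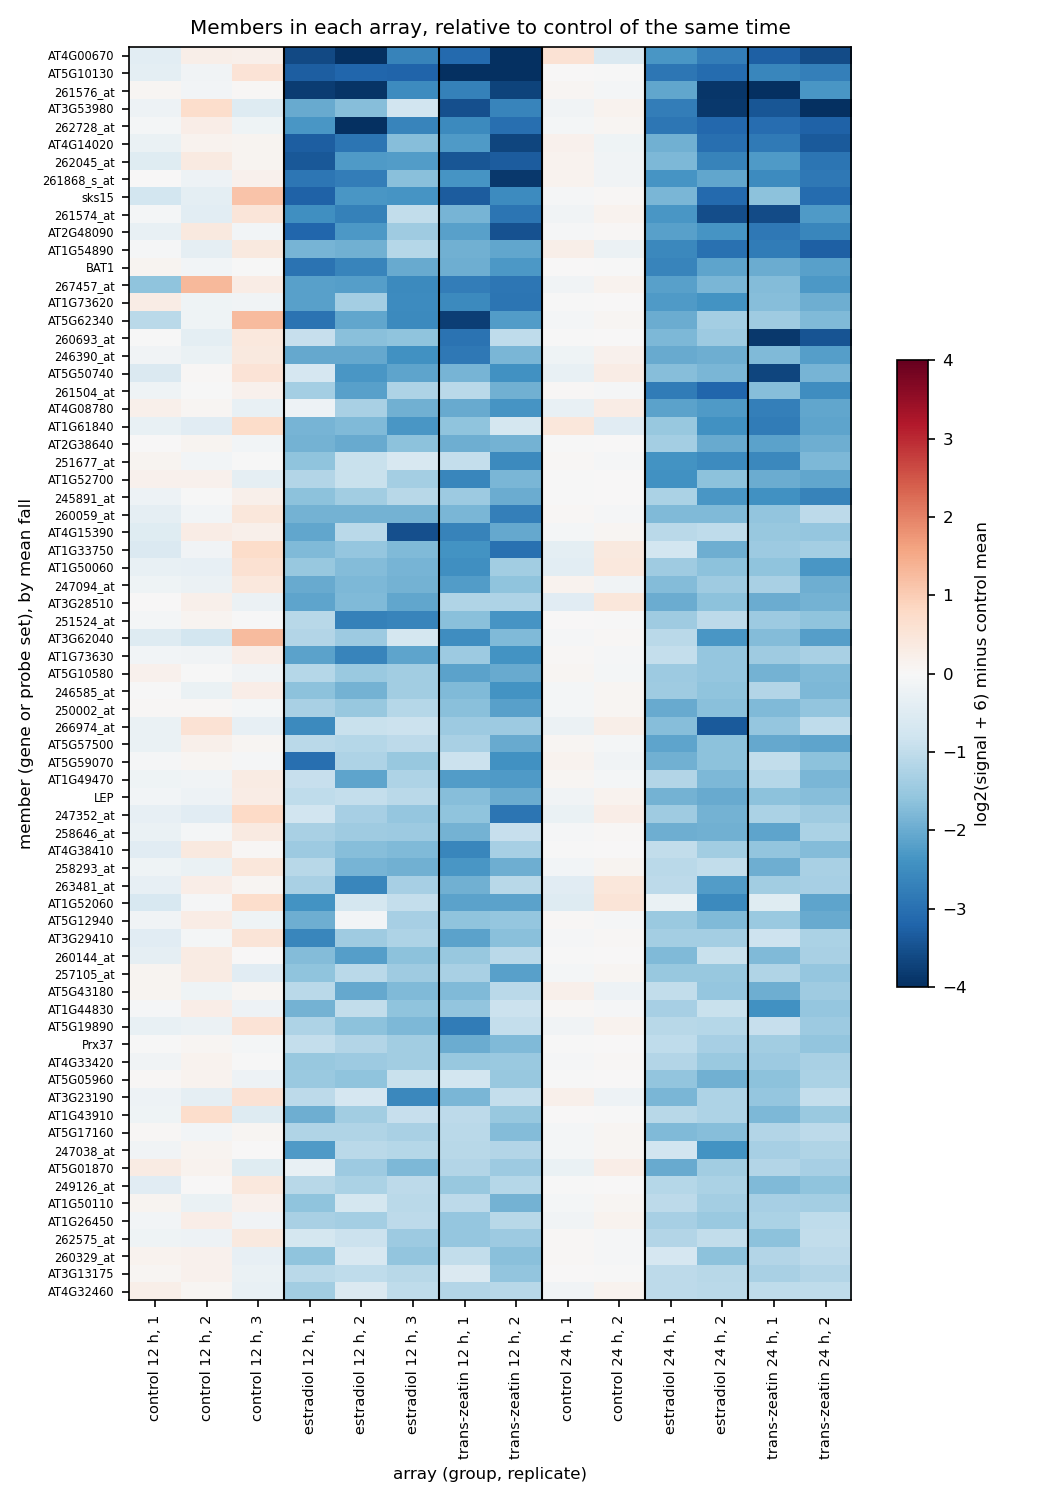
Heat map of the 71 members (rows, ordered by their mean difference) in the 14 arrays (columns, by group), where colour is log2 of signal plus 6 minus the mean of the control arrays of the same time. Every treated cell is below 0, a few of them only faintly blue, and the control columns are near 0, with medians from -0.14 to 0.12.

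AT5G10130, a gene of the pollen Ole e 1 allergen and extensin family of secreted proteins, had 278, 332 and 534 in the control 12 h arrays and 218 and 214 in the control 24 h arrays. Its signals were 31.6, 34.98 and 34.5 with estradiol and 15.9 and 14.9 with trans-zeatin at 12 h, and 23.9 and 20.4 with estradiol and 30.5 and 27.2 with trans-zeatin at 24 h. The highest treated array (34.98) was far under the lowest control array (214), and replicates of a treated group lay close together. The log2 differences from control were -3.23, -4.12, -2.98 and -2.67 for estradiol 12 h, trans-zeatin 12 h, estradiol 24 h and trans-zeatin 24 h, the order used for all members below.

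AT4G00670, a remorin family gene, whose family are plant proteins of the inner face of the plasma membrane, had signals of 80.8, 132 and 129 in control at 12 h and 104 and 43.5 at 24 h. The treated arrays held 3.71, 0.752 and 12.5 (estradiol 12 h), 7.49 and 1.06 (trans-zeatin 12 h), 8.70 and 4.94 (estradiol 24 h) and 1.68 and 0.212 (trans-zeatin 24 h). The groups did not overlap, and the differences were -3.46, -3.59, -2.54 and -3.42. Their mean, -3.254, was the largest of any member, but barely beyond the -3.251 of AT5G10130. All 9 treated arrays were under 23, near the dim end of the scale, so the size of these differences is uncertain.

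AT4G14020, of the rapid alkalinization factor family of secreted signalling peptides, had 74.9, 103 and 100.2 in control at 12 h and 181 and 143 at 24 h. It had 4.02, 6.90 and 23.8 with estradiol and 14.2 and 1.73 with trans-zeatin at 12 h, and 37.7 and 14.8 with estradiol and 17.3 and 10.4 with trans-zeatin at 24 h. No treated array reached the controls, whose lowest value was 74.9, and the differences were -2.64, -2.96, -2.47 and -3.09.

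**Figure D2:**
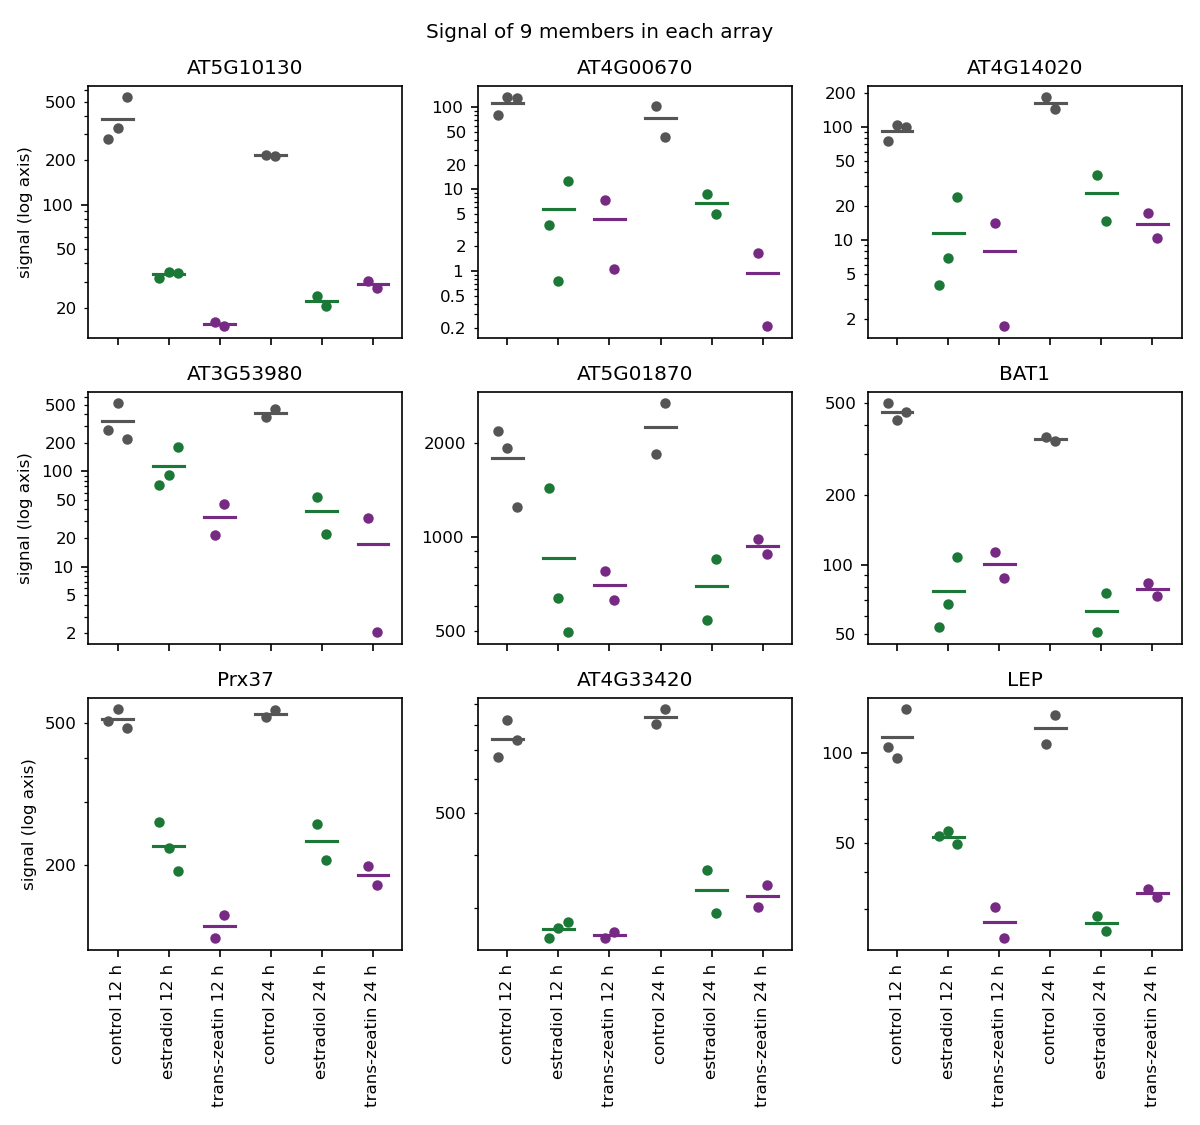
Signal (log axis) of 9 members in each of the 14 arrays, with a point per array, a bar at the group mean, and control in grey, estradiol in green and trans-zeatin in purple. The treated groups sit below the controls in each panel; in AT5G01870, 1 estradiol 12 h array lies at 1432, above the lowest control array at 1251.

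Secreted and cell wall proteins made up 9 of the 44 named members, with AT5G10130 and AT4G14020 among them, and their mean log2 differences ranged from -3.25 to -1.06 (median -2.199). For sks15, a relative of the multicopper-oxidase-like wall protein SKU5, signals were 38.7, 50.7 and 160.2 in control at 12 h and 51.3 and 55.4 at 24 h. Its treated arrays were 2.02, 8.82 and 8.67 with estradiol and 1.39 and 7.15 with trans-zeatin at 12 h, and 10.6 and 0.826 with estradiol and 13.1 and 1.04 with trans-zeatin at 24 h. All of these were under the lowest control array of 38.7 and under 23, near the dim end of the scale. The 12 h controls themselves spread widely, with the highest value (160.2) in replicate 3, one of the arrays set apart above.

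AT5G62340, of the invertase and pectin methylesterase inhibitor family, had 43.5, 87.4 and 244 in control at 12 h and 52.9 and 60.7 at 24 h, with differences of -2.53, -3.01, -1.66 and -1.59. The 12 h controls spread over a wide range, with the highest value (244) again in replicate 3. The differences were smaller at 24 h, where both control arrays were near the low end of that range. AT1G73620, a thaumatin-like protein gene, had 404, 286 and 297 in control at 12 h and 298 and 302 at 24 h and no treated array above 123, with differences of -2.02, -2.74, -2.33 and -1.83. AT1G50060, of the cysteine-rich secretory protein family that includes PR-1, had 182, 177 and 346 in control at 12 h and 92.0 and 173 at 24 h and at most 80.9 after treatment, with differences of -1.71, -1.93, -1.53 and -1.97.

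The remaining 3 of this group had smaller differences. The difference for AT5G12940, a leucine-rich repeat protein gene, averaged -1.52, and its estradiol 12 h replicate 2 (386) was above the lowest control array (366). AT1G26450, a carbohydrate-binding X8 domain gene, averaged -1.27 without overlap. AT4G32460, a DUF642 cell wall protein gene, had the smallest mean difference of all members, -1.06: it had 714, 646 and 489 in control at 12 h and 575 and 699.6 at 24 h, against 227, 403 and 296 with estradiol and 267 and 280.1 with trans-zeatin at 12 h, and 303 and 298 with estradiol and 309 and 309 with trans-zeatin at 24 h.

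Class III peroxidases, secreted enzymes that cross-link or loosen wall polymers, gave 4 members. AT4G33420 had 674, 822 and 739.6 in control at 12 h and 805 and 872 at 24 h. Its treated arrays held 255, 270.4 and 279 with estradiol and 255 and 263 with trans-zeatin at 12 h, and 368 and 293 with estradiol and 302 and 339 with trans-zeatin at 24 h. Its 4 differences, -1.45, -1.50, -1.34 and -1.37, were nearly the same size, and the groups were well apart.

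Prx37 had 506, 546 and 484 in control at 12 h and 521 and 542 at 24 h. It had 264, 223 and 192 with estradiol and 124 and 145 with trans-zeatin at 12 h, and 259.8 and 206 with estradiol and 198 and 176 with trans-zeatin at 24 h, so that both trans-zeatin 12 h arrays were under all 3 estradiol 12 h arrays. Its neighbour on chromosome 4, AT4G08780, had 190.4, 176 and 134 in control at 12 h and 187 and 291 at 24 h, 143, 63.3 and 39.3 with estradiol and 36.4 and 27.6 with trans-zeatin at 12 h, and 48.3 and 44.0 with estradiol and 30.1 and 50.8 with trans-zeatin at 24 h. Here estradiol 12 h replicate 1 (143) lay among the controls, and the differences were -1.14, -2.18, -2.201 and -2.40 against -1.17, -1.88, -1.18 and -1.48 for Prx37. These peroxidase genes lie side by side with no protein-coding gene between them and are closely related in sequence, so how far each probe set reads its neighbour is uncertain. The last, AT5G19890, had differences of -1.56, -1.88, -1.13 and -1.19, with no treated array above 35.9 and no control array below 43.0.

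By words in the gene tables, 7 tested probe sets are peroxidases, of which Prx37 is the only member. The other member peroxidases have no descriptive name there, so the 7 leave out some peroxidase genes. AT1G49570, a class III peroxidase gene just outside the limit of the list, is likewise not among them. The 7 also include SAPX, a stromal ascorbate peroxidase outside class III, with differences of 0.155, -0.278, -0.037 and -0.036. Since the rule fixed the direction of Prx37, the counts are over the other 6. At an adjusted p of 0.05 in limma, 1 of the 6 was lower and 0 higher with estradiol at 12 h, 1 and 0 with trans-zeatin at 12 h, 0 and 0 with estradiol at 24 h, and 1 lower and 1 higher with trans-zeatin at 24 h. Over all 15605 probe sets, 2.52%, 4.3%, 1.52% and 1.32% were lower, and 2.35%, 3.2%, 2.27% and 2.14% were higher. At an unadjusted p of 0.05, 1, 3, 4 and 4 of the 6 passed in that order. The median log2 difference of the 6 was 0.08, -0.12, -0.24 and -0.23, against -0.003, -0.03, -0.09 and -0.06 over all. Among the 6, AT5G64120 rose with trans-zeatin at 24 h (1.82, limma adjusted p = 0.032), while AT2G41480 fell with trans-zeatin at 12 h (-1.42, adjusted p = 0.013) and at 24 h (-1.79, adjusted p = 0.007). PRXR1 fell by 0.51 with estradiol at 12 h (adjusted p = 0.02).

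The lipid transfer and bifunctional inhibitor family, small secreted proteins with conserved cysteines, gave 3 members with different patterns. AT3G53980 had 271, 516 and 217 in control at 12 h and 369 and 449.6 at 24 h. It had 72.7, 91.4 and 179.9 with estradiol and 21.8 and 45.0 with trans-zeatin at 12 h, and 54.3 and 22.3 with estradiol and 32.6 and 2.06 with trans-zeatin at 24 h. The groups stayed apart, but by little at 12 h, where the highest estradiol array was 179.9 and the lowest control 217. Its differences, -1.50, -3.08, -3.32 and -4.55, spanned more than those of any other named member.

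AT5G01870, a lipid transfer protein gene, had 2187, 1934 and 1251 in control at 12 h and 1840.3 and 2682 at 24 h. Its treated arrays held 1432, 638 and 494 with estradiol and 776 and 629 with trans-zeatin at 12 h, and 540.1 and 847 with estradiol and 984 and 878 with trans-zeatin at 24 h. Its estradiol 12 h arrays were uneven, and replicate 1 exceeded the lowest control array. AT5G05960 had 655, 693 and 542 in control at 12 h and 802 and 803 at 24 h and no treated array above 370.3, with differences of -1.32, -1.14, -1.74 and -1.45.

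Of 4 members in acyl transfer and terpene synthesis, BAT1, a brassinosteroid-related acyltransferase gene, had the largest mean difference. It had 496, 421 and 455 in control at 12 h and 356 and 342 at 24 h, against 54.0, 67.8 and 108 with estradiol and 113 and 87.5 with trans-zeatin at 12 h, and 51.0 and 75.5 with estradiol and 82.9 and 73.4 with trans-zeatin at 24 h. No treated array exceeded 113, against 342 in the lowest control, and the differences were -2.54, -2.13, -2.38 and -2.08. AT4G15390, of the BAHD acyltransferase family, had 103, 180.0 and 169 in control at 12 h and 64.2 and 72.3 at 24 h and differences of -2.22, -2.35, -1.04 and -1.52. Its estradiol 12 h replicate 2 (66.7) was above the lowest control array (64.2, at 24 h), but under all controls of its own time. The terpene synthase genes AT1G33750 and AT3G29410 averaged -1.78 and -1.51, both without overlap.

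The next named members are genes of transcription and signalling, whose share among all tested probe sets was not counted. LEP (LEAFY PETIOLE), a transcription factor of the AP2/ERF family named for its effect on leaf stalks when overexpressed, had 105, 96.4 and 140.5 in control at 12 h and 108 and 135 at 24 h. It had 52.5, 54.9 and 49.7 with estradiol at 12 h, 30.3 and 23.8 with trans-zeatin at 12 h, 28.2 and 25.3 with estradiol at 24 h and 34.8 and 32.8 with trans-zeatin at 24 h. The 3 estradiol 12 h arrays were close together and above all other treated arrays, yet under all controls. AT1G44830, also of the AP2/ERF family, had 101, 127 and 90.6 in control at 12 h and 92.5 and 87.1 at 24 h and differences of -1.50, -1.21, -1.10 and -1.98. AT1G73630, an EF-hand calcium-binding protein gene, had 109, 108 and 143 in control at 12 h and 141 and 130.0 at 24 h, and 22.4, 13.9 and 23.1 with estradiol and 39.1 and 17.7 with trans-zeatin at 12 h, and 67.6 and 42.2 with estradiol and 46.8 and 51.6 with trans-zeatin at 24 h.

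Among other families, AT1G54890, a gene related to late embryogenesis abundant proteins, had 101, 80.6 and 139 in control at 12 h and 126 and 91.0 at 24 h, 24.7, 22.9 and 43.9 with estradiol and 22.9 and 20.1 with trans-zeatin at 12 h, and 13.0 and 8.24 with estradiol and 10.4 and 5.69 with trans-zeatin at 24 h. Its treated arrays were lower at 24 h than at 12 h with little change of the controls. AT4G38410, a dehydrin, averaged -1.61. AT5G50740, a heavy-metal-associated domain gene, had 27.0, 45.1 and 67.0 in control at 12 h and 87.1 and 132 at 24 h and differences of -1.71, -2.14, -1.77 and -2.77; estradiol 24 h replicate 1 (29.1) was above control 12 h replicate 1 (27.0), but each treated array was under the controls of its own time. AT5G10580 and AT5G43180 share a domain of unknown function, DUF599, and averaged -1.69 and -1.50, both without overlap.

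AT3G28510 and AT1G43910, ATPases of the AAA type, averaged -1.74 and -1.38, also without overlap. AT2G38640 of the LURP-one-related family (-1.88), AT1G61840 with cysteine- and histidine-rich C1 domains (-1.89) and AT1G52700 of the alpha/beta hydrolase superfamily (-1.85) were likewise apart from the controls. The HAD-like hydrolase gene AT3G62040 averaged -1.73, with 1 estradiol 12 h array (192) above the lowest control (188). Its control 12 h arrays were 220, 188 and 771, and the 771 is replicate 3, one of the arrays set apart above. Its estradiol 12 h arrays were 139, 114 and 192. Without replicate 3 of control 12 h, its estradiol 12 h difference (-1.10) would be smaller, so its place in the list is unsure. AT1G50110, an aminotransferase gene, averaged -1.29, and AT3G23190, related to lesion-inducing proteins, -1.40. The jacalin-type lectin gene AT1G52060 had the most overlapping arrays. It had 172, 266 and 450.1 in control at 12 h and 87.8 and 188 at 24 h, and 4 treated arrays (165, 138, 106 and 90.8) were above the lowest control array (87.8). That control is of 24 h, as are the 106 (estradiol) and the 90.8 (trans-zeatin). The 165 and 138 are estradiol 12 h arrays and were under all controls of their own time.

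For 6 named members no role is given here: AT2G48090, AT5G57500, AT5G59070, AT1G49470, AT5G17160 and AT3G13175, whose mean differences ranged from -2.53 to -1.12 with no overlapping arrays. AT2G48090 had 92.9, 152 and 106 in control at 12 h and 115 and 122 at 24 h and at most 38.5 after treatment, with differences of -2.30, -2.83, -2.25 and -2.74. The 27 unnamed probe sets averaged from -3.19 to -1.22 (median -1.73), and 26 of them had no overlapping arrays. Over all 15605 tested probe sets that share was 3.29%, and since the rule used these arrays, nothing is read from a lack of overlap in any member. Those with the largest mean differences were 261576_at (-3.41, -3.19, -2.97 and -3.16), 262728_at (-3.03, -2.78, -3.02 and -3.15) and 262045_at (-2.64, -3.36, -2.23 and -2.60). The unnamed share of the members, 38.0%, was near that of all probe sets tested, 43.4%.

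Just inside the limit of the list were AT4G32460, 262575_at and LEP, whose smallest differences, all with estradiol at 12 h, were -1.004, -1.012 and -1.022. Just outside were AT1G31950 (-0.99, trans-zeatin 24 h), AT5G45210 (-0.98, estradiol 12 h) and AT1G49570 (-0.97, estradiol 12 h). AT1G49570 is a class III peroxidase gene that the peroxidase word list above does not hold. The mean differences of those outside, -1.39, -1.63 and -1.29, lie within the range of the members.

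The named members lie on all 5 chromosomes: 13 on chromosome 1, 2 on chromosome 2, 6 on chromosome 3, 10 on chromosome 4 and 13 on chromosome 5. As shares of the 44 these are 29.5%, 4.55%, 13.6%, 22.7% and 29.5%, against 25.9%, 15.1%, 20.2%, 14.5% and 23.6% of all tested probe sets with 1 gene. There are 2 pairs of direct neighbours among them, AT1G73620 with AT1G73630 and Prx37 (AT4G08770) with AT4G08780, and AT1G50060 and AT1G50110 have 2 protein-coding genes between them. The thaumatin-like AT1G73620 and the calcium-binding AT1G73630 belong to unrelated families. Of 29 other direct neighbours with a tested probe set, all non-members, 7 were lower by 1 or more under at least 1 treatment. Their median mean difference was -0.14. The share of all probe sets lower under at least 1 treatment was not counted, so nothing is read from the 7. That 0 of the 29 were lower under all 4 was nearly fixed beforehand. With a control signal of 50 or more, such a neighbour would be a member or left out by name.

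The question whether the agents lowered these genes unequally was tested directly, as estradiol minus trans-zeatin. No member passed at an adjusted p of 0.05 in limma at 12 h (lowest adjusted p = 0.43), at 24 h (0.29) or over both times (0.33), where 0.00641%, 0.0449% and 0.0256% of all probe sets passed. At an unadjusted p of 0.05, 14 of 71 members (19.7%) passed at 12 h, 4 (5.63%) at 24 h and 8 (11.3%) over both, against 8.48%, 5.73% and 6.98% of all probe sets. At 12 h, 54 of 71 members had more signal left with estradiol than with trans-zeatin (76.1%, against 52.5% of all probe sets), and the median difference was 0.32 (0.02 over all). At 24 h the count was 40 of 71 (56.3% against 44.9%) and the median 0.06 (-0.03 over all), and over both times it was 50 of 71 (70.4% against 48.6%). The rule used the same treated arrays, each against control, so these counts and medians are a description of the list. The median 95% interval of a member's difference reached 0.73 to either side at 12 h and 0.80 at 24 h. In a member with an interval of that width, a smaller difference could not be told from 0. Some members had narrower intervals, such as 250002_at at 12 h (0.595, 0.155 to 1.035). The intervals are not adjusted for the number of tests, and no member passed after adjustment in this fit.

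**Figure D3:**
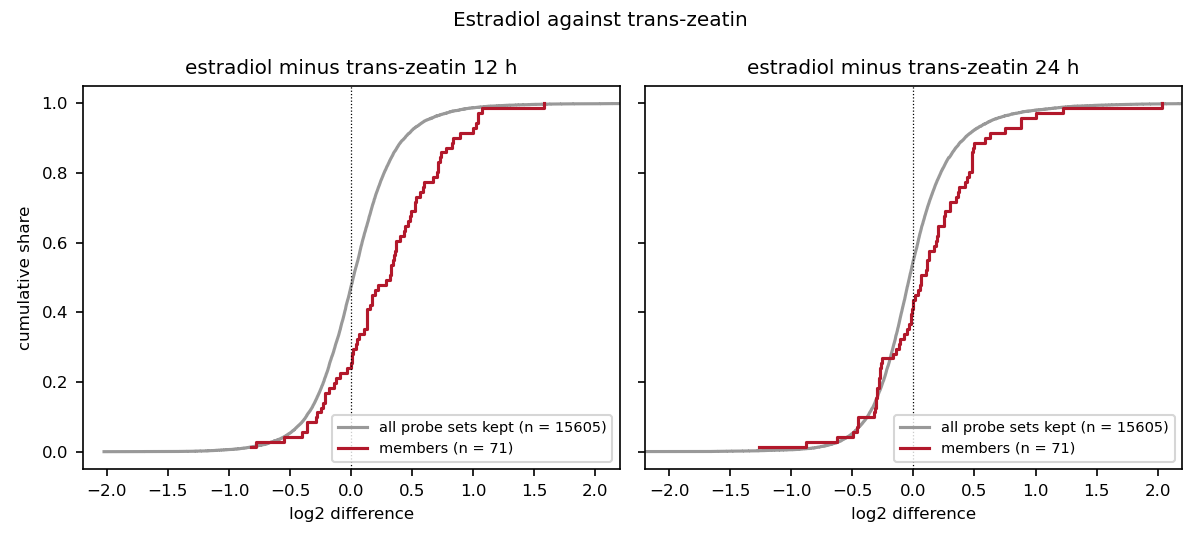
Cumulative share of the 71 members (red) and of all 15605 tested probe sets (grey) by their log2 difference estradiol minus trans-zeatin, at 12 h (left) and 24 h (right). At 12 h the members' curve lies to the right of the others over most of its range (median 0.32 against 0.02), and at 24 h it is closer to them (0.06 against -0.03).

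The members with the lowest p at 12 h were AT5G10580 (0.73, 95% interval 0.40 to 1.07, adjusted p = 0.43), Prx37 (0.72, 0.35 to 1.08, 0.44), LEP (0.82, 0.41 to 1.24, 0.44) and AT5G10130 (0.89, 0.41 to 1.38, 0.44). For LEP, as listed above, all estradiol 12 h arrays were above both trans-zeatin 12 h arrays, and this was also so for AT5G10580, AT5G10130 and Prx37. At 24 h the difference was 0.35 for AT5G10580, 0.30 for Prx37, -0.28 for LEP and -0.31 for AT5G10130, with adjusted p in limma of at least 0.88. AT3G28510 was the member with the lowest p in the other direction at 12 h (-0.78, -1.45 to -0.11, adjusted p = 0.54), but all 9 of its treated arrays were under 23, near the dim end of the scale. At 24 h, the unnamed 260693_at had the lowest p: its arrays were 149.9 and 194 with estradiol and 31.2 and 43.5 with trans-zeatin, against 531 and 541 in control (difference 2.04, 1.06 to 3.02, adjusted p = 0.29). It passed when only the arrays compared were fitted (adjusted p = 0.032) and without either trans-zeatin 12 h array (0.024 in both), in which its replicates lay far apart (99.5 and 393).

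The second question was whether the members already differed between 12 and 24 h without treatment. No member passed in limma (lowest adjusted p = 0.1), where 0.468% of all probe sets did, and 10 of 71 (14.1%) had an unadjusted p under 0.05 against 15.0% of all. The median difference of control 24 h minus control 12 h was 0.05 (0.06 over all), with 39 members higher (54.9% against 57.1% of all) and 32 lower. The rule used these control arrays too: at each time they had to lie above the treated ones, with a signal of 50 or more at 12 or 24 h. The shares and medians of members are therefore a description of the list. The lowest p was that of the unnamed 260059_at, with 75.8, 90.02 and 137 at 12 h and 38.8 and 35.9 at 24 h (-1.27 ± 0.31 SE, adjusted p = 0.1). AT5G10130 followed (-0.75 ± 0.23, adjusted p = 0.16), with all 12 h controls above both 24 h controls. AT5G50740 had the largest difference upward, 1.19 ± 0.55 (adjusted p = 0.33), and its 12 h controls spread from 27.0 to 67.0.

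**Figure D4:**
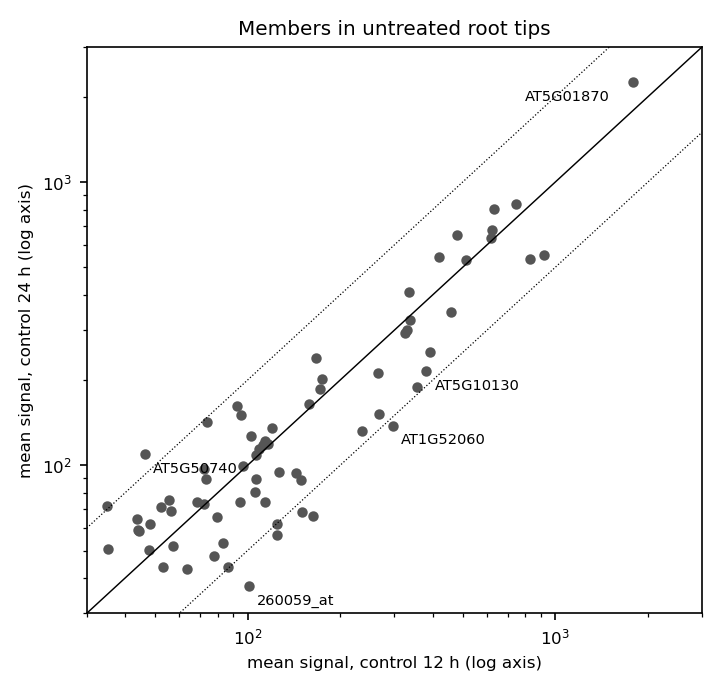
Mean signal of each of the 71 members in the 3 control 12 h arrays (x, log axis) and the 2 control 24 h arrays (y, log axis), where the solid line marks equal signals and the dotted lines a ratio of 2. Most members lie between the dotted lines; on the log2 scale with 6 added, 1 member was higher and 3 were lower by 1 or more at 24 h.

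The third question was whether a treatment's effect changed between 12 and 24 h. No member passed for estradiol (lowest adjusted p = 0.36; 7 of 71 at an unadjusted p of 0.05, or 9.86%, against 8.47% of all) or for trans-zeatin (lowest adjusted p = 0.3; 4 of 71, or 5.63%, against 9.53%). The rule required a difference of at least 1 from control at both times, and so limited how far a member's effect could change; the shares of members are a description of the list. Over all probe sets, 0.0769% passed for estradiol and 0.0% for trans-zeatin. The difference of effects was above 0 in 37 of 71 members for estradiol (44.5% of all probe sets) and in 45 of 71 for trans-zeatin (48.3%). Both tests use the same control arrays, and the median 95% interval of a member reached 1.03 to either side for estradiol and 1.08 for trans-zeatin. For estradiol, the lowest p was that of LEP, whose difference from control was larger at 24 h (-0.93, 95% interval -1.52 to -0.34, adjusted p = 0.36). AT1G54890 (-1.14, -2.05 to -0.23, 0.48) and AT3G53980 (-1.82, -3.57 to -0.08, 0.57) had the same sign, and AT1G73630 the other (1.05, 0.21 to 1.90, 0.48). For trans-zeatin, AT5G10130 had the lowest p, with a smaller difference from control at 24 h (1.45, 0.73 to 2.17, adjusted p = 0.3), where its control was lower as well.

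Other members of the families were looked up through words in the gene tables, as for the peroxidases. Of 29 such word lists, 17 held a tested probe set, 9 held at least 5, and only the peroxidase list held a member. Of 5 rapid alkalinization factor genes, the family of AT4G14020, 0 passed in either direction under any treatment at an adjusted p of 0.05 in limma, with median log2 differences of -0.44, -0.40, -0.21 and -0.34 for estradiol 12 h, trans-zeatin 12 h, estradiol 24 h and trans-zeatin 24 h; at an unadjusted p of 0.05, 2, 2, 1 and 1 of the 5 passed in the same order. Of 5 late embryogenesis abundant genes, 0 passed as well, with medians of 0.03, -0.36, -0.21 and 0.05; at an unadjusted p of 0.05, 0, 1, 0 and 1 of the 5 passed in the same order. Over all probe sets, 20.8%, 23.3%, 18.3% and 17.3% had such a p. Lipid transfer, Ole e 1 and remorin genes have no descriptive name in the tables and were not analysed here beyond the members.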

How the data were processed

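RNA of 14 root tip samples was measured on Affymetrix ATH1 arrays with 1 labelled sample each. The authors deposited linear signal intensity per probe set, made with MAS5 and GCOS per the submitters' processing notes; their versions are not given in the labels. After trimming 2% at each end, every array had a mean of 100, and no further normalization was applied. The number of arrays, 2 or 3 a group, limits the precision, and nothing states that replicates were separate cultures, so p-values measure the spread between these samples, which may be technical.

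Values were analysed as log2 of signal plus 6, which understates differences of dim probe sets. Probe sets with at least 2 arrays above 23, the 40th percentile, were tested (15605 of 22810, after leaving out 64 control probe sets); all 71 members passed. With limma 3.58.1 in R 4.3.3, 1 mean per group was fitted to the 14 arrays with moderated variances and an intensity trend, in two-sided tests adjusted over all 15605 by Benjamini-Hochberg and called under 0.05; p-values are from this fit unless another setting is named. The code was tested on simulated data. Genes come from the platform annotation, and gene order and names from RefSeq's table of TAIR10.1; IPT8 has no named probe set and was not analysed here.

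The members and lists were chosen with earlier results of these data known. The rule for named genes took the 3 leading genes, the 20 named members with the largest mean difference, members next to each other on a chromosome, members of a family list with 2 or more members, those nearest the limit and the 3 unnamed probe sets with the largest difference; other names were chosen after their values were seen. Role groups were set by hand after the members were known. Same-numbered replicates were checked for pairing: 3 of 31 pairs correlated at r over 0.1 (range -0.27 to 0.19), so the numbers were not used as pairs. Promoter sequences were not used here. Alternatives covered the pseudocount, filter, normalization, variance trend, replicate block, actin ratio, arrays in the fit and each array left out.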

Additional observations from a re-analysis of the deposited data

How the results depend on the processing

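No member had an adjusted p under 0.05 in the 6 comparisons between the agents and between the times, and that held under every alternative run in 4 of the 6. For estradiol against trans-zeatin at 24 h, 1 member passed with only the arrays compared, and leaving out single arrays gave from 0 to 1. Over both times, leaving out single arrays also gave from 0 to 1. In each case it was 260693_at, at 24 h without trans-zeatin 12 h replicate 1 or 2 and over both times without trans-zeatin 12 h replicate 2 (difference 1.79, adjusted p = 0.012). Of the further values for single probe sets, 1168 kept their direction and side of the threshold, 4 newly passed, all of them 260693_at, and none reversed.

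The rule gave 71 members, 34 of them when every treated array had to be 1 below the control mean, and from 60 to 82 without single arrays. The lowest count, 60, was without control 24 h replicate 2 and shared 58 members with the 71. Without control 12 h replicate 3, one of the arrays that stand apart, the count was 70, of which 64 were shared with the 71. With a pseudocount of 1 the medians of the 71 were -1.78 (estradiol 12 h), -2.12 (trans-zeatin 12 h), -1.83 (estradiol 24 h) and -1.81 (trans-zeatin 24 h). With arrays centred on their median they were -1.58 and -1.57 at 24 h. Without both arrays that stand apart they were -1.50 and -1.78 at 12 h. With the replicate block the median for trans-zeatin at 12 h was -1.82, and the block changed no call. Leaving out single arrays gave medians from -1.66 to -1.49 (estradiol 12 h), -1.998 to -1.783 (trans-zeatin 12 h), -1.75 to -1.66 (estradiol 24 h) and -1.77 to -1.64 (trans-zeatin 24 h). The cause of these shifts was not tested. Dim signal limits the size of the differences: 22 members had all 4 treated means under 23.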
